A study of Mus musculus with 24 samples.

Results

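The nuclear genes for subunits of the mitochondrial respiratory chain and ATP synthase were followed in mouse pancreas through caerulein pancreatitis. Members were all table entries whose gene name begins as a subunit name of complex I (Ndufa, Ndufb, Ndufc, Ndufs, Ndufv), complex II (Sdha to Sdhd), complex III (Uqcr), complex IV (Cox4 to Cox8) or ATP synthase (Atp5). The rule uses names and no measured value, but it was set with earlier results of these data known. The rule found 86 of 36806 entries, with 38 in complex I, 4 in complex II, 8 in complex III, 18 in complex IV and 18 in ATP synthase, here called complex V. Of these, 81 reached 1 FPKM (a level that counts sequenced fragments relative to transcript length and library size) in at least 3 of 24 libraries and were tested. Not tested were the tissue-restricted isoforms Cox4i2, Cox6a2, Cox7b2 and Cox8c, which never exceeded 1.78 FPKM, and Atp5l2, a processed pseudogene listed at 0 in every library. The names Atp5s and Atp5sl (Dmac2 in the GENCODE M21 annotation) also match, are not structural subunits of ATP synthase, and are counted with complex V.

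Polyadenylated RNA of whole pancreas was sequenced from C57BL mice carrying 2 intact copies of Nr5a2 (+/+, WT) or 1 (+/-, HET). Nr5a2 encodes a nuclear receptor of acinar cells, the enzyme-secreting cells of the pancreas. Mice of each genotype received saline, or 7 hourly intraperitoneal injections of 50 ug/kg caerulein, which acts like the gut hormone cholecystokinin and overdrives acinar secretion. Tissue was taken 8, 24 or 48 h from the start of the injections. The 8 groups, WT and HET in saline and at 8, 24 and 48 h, held 3 libraries each. The labels do not say in words that each library is a separate animal, and p-values measure the spread between these libraries. The sources used here give neither ages nor how the +/- allele was made and in which cells it is changed.

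Respiratory complexes pass electrons from NADH and succinate to oxygen and pump protons across the inner mitochondrial membrane, and ATP synthase uses the returning protons to make ATP. Most subunits are encoded in the nucleus and imported, while a small core is encoded in mitochondrial DNA. Acinar cells spend much of this ATP on calcium pumping and on making and secreting enzymes, and loss of mitochondrial function is a known early event of pancreatitis. The 13 subunits encoded in mitochondrial DNA were listed at 0 in every library although all cells with mitochondria use them, so the balance of both genomes could not be examined.

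Deposited FPKM summed to between 217205 and 1400108 per library, and sequencing depth is unknown. Acinar products and Reg family genes made up 46.99 to 57.92% of that sum in saline and as little as 4.486% in replicate 3 of HET at 48 h. Some acinar values were treated as missing estimates and add nothing to these shares. The part of missing values in low shares was not tested. Replicate 1 of HET saline had the highest sum. Libraries of saline and 24 h followed an earlier preparation guide and those of 8 and 48 h its second version, except that the title of WT saline replicate 3 is in neither list and its guide is not known. So the change from saline to 8 or 48 h and the change of guide cannot be told apart. Comparisons within 1 guide are 48 h against 8 h, 24 h against saline in HET, and HET against WT at 8, 24 and 48 h. But for WT saline replicate 3, so are 24 h against saline in WT and HET against WT in saline. The same holds for the difference between the genotypes' changes at 24 h. Nr5a2 itself ranged from 9.26 to 12.6 FPKM in WT saline and from 8.01 to 9.09 in HET saline. The genotypes did not overlap in saline or at 8 h, and overlapped at 24 and 48 h.

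At 8 h, 67 of the 81 members were lower than in saline in WT and none was higher, and in HET 70 were lower and none higher. Across all genes tested, limma with Benjamini-Hochberg adjustment called 22.8% lower and 28.2% higher in WT, and 24.5% lower and 30.7% higher in HET. The median member fell by 1.03 on the log2 scale in WT and by 1.27 in HET, against all-gene medians of 0.05 and 0.01. Every scaling of the libraries that was tried kept this direction, with no member higher. Of the 67 calls in WT, 66 were also calls in HET, which is 98.5% of the WT and 94.3% of the HET calls, in separate libraries. With 82.7% of the members called in WT and 86.4% in HET, most calls would be shared in any case. The change of guide between saline and 8 h is also common to both genotypes. The median FPKM over members was 68.7 to 76.1 in the 3 WT saline libraries and 31.2 to 38.5 in the 3 WT libraries at 8 h. In whole tissue, fewer cells of a type and less RNA per cell cannot be told apart. Summed FPKM of the 32 acinar products was 375000 to 501000 in WT saline and 74500 to 131000 at 8 h. Of 18 tested products 9 were lower and 1 higher, and Amy2a5, Amy2b and Ctrb1 were listed at 0 throughout. Products treated as missing in a group were not tested there and add nothing to its sum. The part of missing values in the fall of the sums was not tested. In HET 12 of 19 tested products were lower, and so were 10 of 14 fibroblast and stellate markers, with sums of 419 to 840 in saline and 340 to 380 at 8 h. The part of these shifts in the members' change was not tested.

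**Figure D1:**
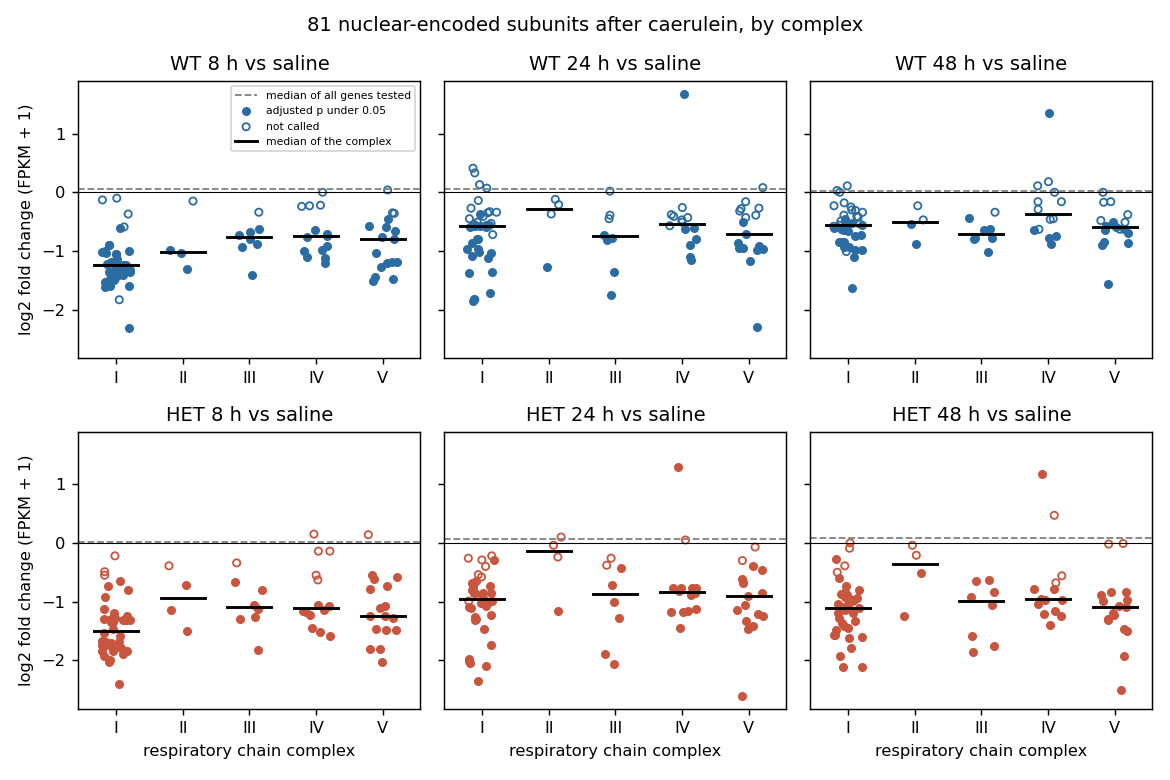
Each point is 1 of 81 tested subunit genes, with its log2 fold change of FPKM + 1 against saline of the same genotype on the vertical axis and its complex on the horizontal axis. Filled points passed an adjusted p of 0.05, black bars are medians of a complex and the dashed line is the median of all genes tested. At 8 h nearly all points lie below the dashed line in both genotypes. At 24 and 48 h the median of all members is less negative than at 8 h in both genotypes, and HET lies lower than WT. Under the scaling without acinar products the medians at these 2 times turn positive. The filled points above 0 are Cox7a1, whose WT saline libraries are all listed at 0, so that its height depends on the pseudocount.

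At 24 h fewer members were called lower than at 8 h. In WT 43 of 81 were lower than in saline and 1 was higher, where 18.7% of all genes were called lower and 20.5% higher. In HET 65 were lower and 1 was higher, where 19.8% and 23.9% of all genes were called. The median member was 0.57 lower on the log2 scale in WT and 0.88 lower in HET, but scaling libraries to their total without acinar products and Reg genes turned both medians positive, at 0.32 and 0.23. That scaling also moved the all-gene median to 0.69 in WT and 0.86 in HET, so the members remained 0.37 and 0.63 below the median gene, against 0.62 and 0.94 with the deposited values. Its split of calls was 27 higher and 6 lower in WT, and 26 higher and 9 lower in HET. Of all genes it called 56.1% higher and 3.78% lower in WT, and 63.5% and 4.8% in HET. Scaling to the total of other protein-coding genes moved the all-gene medians to 0.33 and 0.39 and the members' to -0.19 and -0.41, with 6 higher and 28 lower in WT and 3 higher and 43 lower in HET. There 35.2% of all genes were higher and 10.1% lower in WT, and 42.4% and 11.2% in HET. As a share of each library's summed FPKM, the members made up 0.827 to 0.885% in WT saline and 1.06 to 1.15% at 24 h, and in HET 0.881 to 0.973% and 1.43 to 1.69%. At 24 h the subunits thus stood lower relative to the median gene and made up more of the summed FPKM.

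All 43 WT calls of lower members at 24 h were also HET calls, 66.2% of the 65. Those 65 made up 80.2% of the 81 members. Among the 22 called in HET alone were Cox5a, Cox5b, Cox6b1 and Cox7c of complex IV, Atp5f1 of the ATP synthase stalk and Ndufa4. The difference between the genotypes' changes passed the test for none of the 81 members, where 2.3% of all genes passed in either direction, and 6 members had an unadjusted p under 0.05 in limma. Its median was -0.31 on the log2 scale, with 70 of 81 members changing more negatively in HET, and -0.11 with 56 of 81 under the scaling without acinar products. The all-gene medians were 0.02 and 0.17. The 2 smallest p-values belonged to Ndufa10, at -0.52 (SE 0.21, adjusted p = 0.182), and Ndufb3, at -0.67 (SE 0.28, adjusted p = 0.213). Without replicate 1 of HET saline, the library with the highest sum, 52 members were called in HET at 24 h.

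Complex I, the NADH dehydrogenase and the largest complex, changed most at 8 h in WT. Of its 38 members 33 were lower in WT, with a median of -1.23, while the medians of complexes III, IV and V were -0.76, -0.75 and -0.79. The complex IV median includes Cox7a1, Cox6b2 and Cox8b, at most 1.2 FPKM in these libraries, with changes of 0.00, -0.22 and -0.24. In complex II, Sdha, Sdhb, Sdhc and Sdhd changed by -0.15, -1.31, -0.99 and -1.04. These differences between complexes were not tested. Core subunits, which carry the flavin and iron-sulfur centres, and accessory subunits were alike in this, with 5 of 7 and 26 of 28 lower and medians of -1.30 and -1.22.

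Ndufv3, an accessory subunit of the NADH-binding module, was 98.5, 134 and 111 FPKM in WT saline and 17.5, 23.1 and 26.5 at 8 h. It was 37.2, 30.5 and 28.3 at 24 h and 62.4, 43.6 and 52.8 at 48 h. Every saline library was above every caerulein library, with a log2 change at 8 h of -2.31 (SE 0.21, adjusted p = 1.81e-08). In HET it was 172, 116 and 92.5 in saline, 19.3, 23.9 and 24.4 at 8 h, 20.3, 24.5 and 25.5 at 24 h and 32.9, 35.1 and 26.9 at 48 h. At 48 h no HET library reached the lowest WT value.

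Ndufs1, the iron-sulfur subunit with the most clusters of the complex, was 10.9, 9.43 and 11.0 FPKM in WT saline and 4.05, 4.46 and 3.88 at 8 h. It fell by 1.16 on the log2 scale (SE 0.10, adjusted p = 1.01e-08), the smallest adjusted p of any member in WT at 8 h. Ndufs8 and Ndufs7, core iron-sulfur subunits, fell by 1.59 and 1.6 (SE 0.18 and 0.20), and the accessory subunit Ndufb7 by 1.5 (SE 0.20). Saline and 8 h libraries did not overlap for any of these 4 genes. Ndufs8 was 30.2 in each of the WT saline libraries and 7.28, 10.4 and 10.7 at 8 h, the most even saline level of these genes. In HET the same core genes fell by 2.02 for Ndufs8 and 1.99 for Ndufs7, and the accessory subunit Ndufa9 fell by 1.53 (SE 0.16).

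By 24 h some complex I members lay far below saline and others near it. Ndufa1, a small membrane subunit encoded on the X chromosome, was 148, 204 and 172 FPKM in WT saline and 46.1, 50.8 and 45.1 at 24 h, a fall of 1.85 (SE 0.27, adjusted p = 3.95e-05). Ndufb11, also X-linked, was 76.6, 94.3 and 80.5 against 21.5, 25.5 and 28.0, a fall of 1.71 (SE 0.24, adjusted p = 2.68e-05). Neither gene's saline and 24 h libraries overlapped.

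Other accessory subunits of the same membrane arm and of the stalk stayed near or above saline at that time. Ndufb3 was 13.5, 15.3 and 16.7 FPKM in WT saline, 7.22, 7.81 and 8.07 at 8 h and 19.9, 19.0 and 22.5 at 24 h. All its 24 h libraries lay above saline, at a log2 change of 0.41 that missed the threshold (SE 0.20, adjusted p = 0.11). Ndufs4, a stalk subunit mutated in Leigh syndrome, was 12.5, 13.4 and 14.1 in saline and 16.8, 15.8 and 18.4 at 24 h, a change of 0.33 (SE 0.18, adjusted p = 0.15). At 8 h both had fallen, by 0.89 and 0.90. Ndufb3, Ndufs4, Uqcrb and the genes called in 1 genotype alone were picked out after their values were seen.

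Ndufa4 bears a complex I name but works as a subunit of cytochrome c oxidase, and Ndufa4l2 is its hypoxia-inducible paralog. Ndufa4 was 161, 158 and 135 FPKM in WT saline, 45.1, 51.8 and 49.7 at 8 h, 105, 119 and 136 at 24 h and 125, 107 and 127 at 48 h. It fell by 1.61 at 8 h (SE 0.17, adjusted p = 1.16e-07), and between 8 and 48 h it rose by 1.27 (SE 0.17, adjusted p = 2.95e-06), with no overlap in either comparison. Ndufa4l2 stood far lower, at 2.24, 2.90 and 2.02 in WT saline, 0.492, 0.489 and 0.427 at 8 h, 1.57, 1.39 and 0.84 at 24 h and 2.72, 1.48 and 1.48 at 48 h. Both paralogs thus fell at 8 h, Ndufa4l2 by 1.20 on the log2(FPKM + 1) scale (SE 0.16), a scale that understates change at such low levels.

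A second entry carries the name NDUFB8 under another Ensembl identifier, ENSMUSG00000091471, which the GENCODE M21 annotation names Gm20538. It is counted with complex I and was called in no comparison with saline. It was 43.5, 0 and 0 FPKM in WT saline and 0 in every WT library at 8 h. Its log2 change there, -1.83 with an SE of 1.16, thus rests on 1 library. Reads shared with Ndufb8 could be split between both entries. Many subunit genes also have processed pseudogenes, and how reads that match several copies were assigned is not given in the sources used here.

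Complex II, succinate dehydrogenase, links the tricarboxylic acid cycle to the chain and has no mitochondrially encoded subunit. Its 4 genes differed in their time courses. Sdha, the flavoprotein, was 82.4, 68.0 and 86.2 FPKM in WT saline, 60.9, 73.7 and 78.8 at 8 h, 66.7, 56.7 and 82.3 at 24 h and 56.6, 62.9 and 50.4 at 48 h. It was called in no comparison of either genotype, and its largest log2 difference in WT was -0.47 at 48 h (SE 0.19, adjusted p = 0.0819). Sdhb, the iron-sulfur subunit that receives the electrons, was 64.4, 80.4 and 67.6 in WT saline, 21.9, 28.9 and 33.9 at 8 h, 29.0, 28.2 and 28.4 at 24 h and 43.8, 31.3 and 39.8 at 48 h. Each saline library was above all later ones, with falls of 1.31, 1.28 and 0.88 (SE 0.20 each).

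The membrane anchors Sdhc and Sdhd were lowest at 8 h. Sdhd was 24.3, 27.6 and 33.3 FPKM in WT saline, 11.6, 14.2 and 13.9 at 8 h, 26.3, 23.2 and 28.3 at 24 h and 23.6, 22.7 and 25.4 at 48 h. It fell by 1.04 at 8 h (SE 0.14) and rose by 0.81 between 8 and 48 h (SE 0.14, adjusted p = 8.84e-05), and its 24 h libraries overlapped those of saline. Sdhc fell by 0.99 at 8 h (SE 0.15), from 68.9 to 75.4 down to 34.7 to 38.0, and was 52.7 to 60.3 at 24 h, where the difference of -0.37 had an adjusted p of 0.0527. In HET, Sdhb fell by 1.16 at 24 h (SE 0.20, adjusted p = 0.000134), and Sdhc and Sdhd were called at 8 h and not at 24 h. At 48 h Sdhc was below saline in WT, at -0.54 (SE 0.15, limma adjusted p = 0.0115). Sdhd was below saline at 48 h in HET, at -0.52 (SE 0.14, limma adjusted p = 0.00576). Sdhd in WT, at -0.23, and Sdhc in HET, at -0.04, were not called at 48 h.

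The ratio of Sdhb to Sdha within a library does not depend on how libraries were scaled. It was 0.782, 1.18 and 0.784 in WT saline and 0.435, 0.497 and 0.345 at 24 h, and 1.17, 0.794 and 0.979 in HET saline against 0.431, 0.426 and 0.458 at 24 h. In both genotypes the 24 h libraries lay below all saline libraries, with an exact two-sided permutation p of 0.10, the smallest that 3 against 3 allows, and 0.229 after adjustment over 16 such tests. From 8 to 48 h the ratio went from 0.36, 0.392 and 0.43 to 0.774, 0.498 and 0.79 in WT without overlap. In HET it was 0.49, 0.45 and 0.386 and then 0.535, 0.491 and 0.392, and those ranges overlapped.

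**Figure D2:**
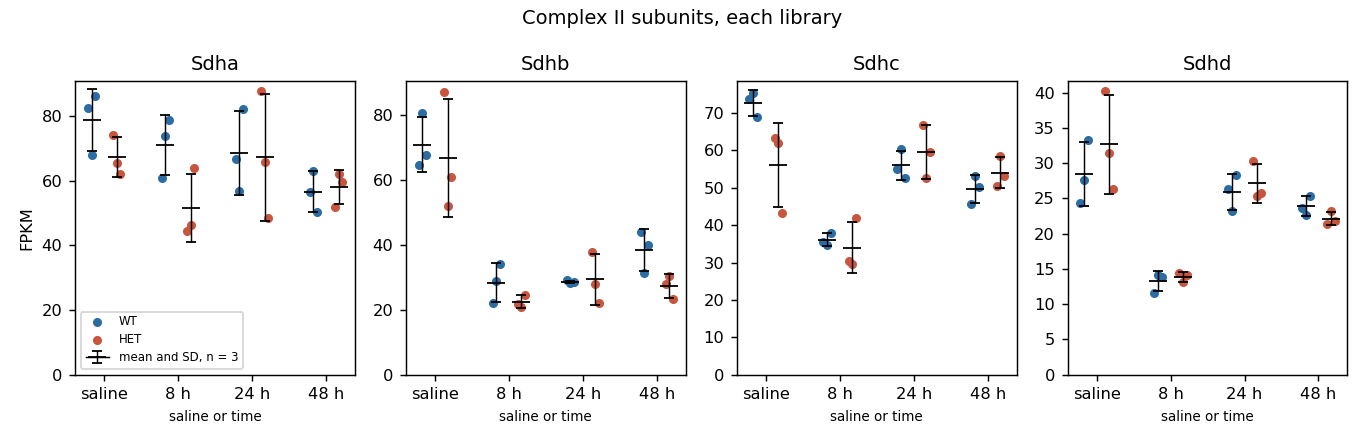
FPKM of the 4 complex II genes in each library (points, vertical axis) for saline and 8, 24 and 48 h after the first caerulein injection, with the mean and SD of 3 libraries per group in WT and HET. Sdha was called in no comparison, Sdhb is low at every time after caerulein, and Sdhc and Sdhd are lowest at 8 h.

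Complex III, the cytochrome bc1 complex, fell in 7 of 8 members at 8 h in WT and in 5 of 8 at 24 h. Its most abundant member in WT saline, Uqcrq, which encodes a small subunit beside cytochrome b, was 429, 406 and 374 FPKM in WT saline, 179, 261 and 305 at 8 h and 110, 102 and 149 at 24 h. No 24 h library reached an 8 h or saline value, and the change from saline to 24 h was -1.75 (SE 0.28, adjusted p = 9.64e-05). Uqcrb, another small subunit, had fallen by 0.94 at 8 h. At 24 h its libraries, 62.9, 59.7 and 89.0, overlapped those of saline, 74.8, 63.8 and 67.5, with a difference of 0.02 (SE 0.21).

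The core protein gene Uqcrc1 moved late. It was 50.4, 64.1 and 58.3 FPKM in WT saline, 37.1, 47.0 and 52.4 at 8 h, 29.9, 36.3 and 37.6 at 24 h and 35.6, 30.8 and 32.6 at 48 h. The 8 h libraries overlapped saline (adjusted p = 0.0887), whereas it fell by 0.72 at 24 h (SE 0.16) and by 0.78 at 48 h (SE 0.16). It was the 1 member called lower in WT at 48 h than at 8 h, at -0.44 (SE 0.16, adjusted p = 0.0301), but this turned positive under both scalings to other totals, as did its 24 h value under the scaling without acinar products.

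In complex IV, cytochrome c oxidase, all 10 tested ubiquitous subunits were lower at 8 h in WT, 5 at 24 h and 4 at 48 h. Cox7b, X-linked and the most abundant member in WT saline, was 599, 641 and 587 FPKM there, 277, 338 and 360 at 8 h and 276, 267 and 279 at 24 h. It fell by 0.91 and 1.15 (SE 0.27 each), with no overlap. In HET saline it varied from 248 to 712, and its 8 h change was not called there. Cox4i1, a nuclear subunit that also regulates the enzyme, was 247, 296 and 259 in WT saline and 132, 140 and 159 at 24 h, a fall of 0.89 (SE 0.22, adjusted p = 0.00294) that became 0.05 under the scaling without acinar products.

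The tissue-restricted isoforms stayed low. Cox7a1, the heart and muscle form of a small subunit, was listed at 0 in all 6 WT libraries of saline and 8 h, at 1.84, 1.09 and 4.59 FPKM at 24 h and at 1.36, 1.66 and 1.63 at 48 h. It was the single member called higher against saline, at 24 and 48 h in both genotypes, and since those saline values are 0 or near it no fold is given. Only its 24 and 48 h libraries reached 1 FPKM, so Cox7a1 passed the filter through the groups where it is high. Isoforms without such a group, such as Cox4i2 and Cox7b2, were not tested, so its call is not a finding about restricted isoforms. In HET the 24 h libraries were at 1.42, 2.15 and 2.65 and the saline libraries at 0, 0.875 and 0. Its ubiquitous partner Cox7a2 was 59.8 to 77.2 in WT saline and 48.0 to 52.3 at 24 h. Smooth muscle and pericyte markers summed to 24.3 to 31.8 FPKM in the WT saline libraries, 46.0 to 57.8 by 24 h and 82.4 to 188 by 48 h, with 3 of 8 tested called higher at 24 h and none lower. In HET at 24 h none of the 8 was higher and 2 were lower, while Cox7a1 was called higher there too. Of all genes 20.5% were higher and 18.7% lower at 24 h in WT, and 23.9% and 19.8% in HET. Striated muscle markers summed to at most 4.74 in WT, with Ckmt2 and Myh4 listed at 0 throughout, and brown adipocyte markers, which include Cox7a1, to at most 6.62. The part of other cell types in Cox7a1 was not tested.

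In complex V, ATP synthase, the catalytic beta subunit Atp5b was 475, 467 and 420 FPKM in WT saline, 278, 348 and 375 at 8 h, 214, 228 and 245 at 24 h and 304, 213 and 249 at 48 h. On the deposited scale it fell by 0.45 at 8 h (SE 0.17, adjusted p = 0.0312) and by 0.98 at 24 h (SE 0.17, adjusted p = 0.000165). No later library reached saline on that scale. The scaling without acinar products divided WT saline libraries by 1.175 to 1.611 and WT 24 h libraries by 0.7215 to 0.7538. Under it the 24 h libraries of Atp5b overlapped those of saline. Of the 5 genes of the F1 head, which holds the catalytic sites, 4 were lower at 8 h and 4 at 24 h. All 4 genes of the peripheral stalk were lower at 8 h, with a median of -1.33, among them Atp5o, the oligomycin sensitivity protein, at -1.47 (SE 0.20).

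The c ring, the rotor that protons turn, is built from a peptide that 3 genes encode with the same mature sequence and different import signals. Atp5g1 was 75.6, 85.7 and 50.9 FPKM in WT saline, 18.9, 23.4 and 34.1 at 8 h, 13.0, 15.7 and 11.6 at 24 h and 30.3, 17.8 and 21.8 at 48 h. Atp5g2 was 70.0, 66.5 and 79.2 in saline, 34.8, 42.2 and 49.8 at 8 h, 62.6, 57.5 and 58.5 at 24 h and 73.4, 55.7 and 64.6 at 48 h. Atp5g3 was 143, 196 and 162 in saline, 112, 132 and 146 at 8 h, 153, 137 and 155 at 24 h and 129, 88.3 and 116 at 48 h. Only Atp5g1 of the 3 was called at 24 h in WT, at -2.29 (SE 0.23, adjusted p = 6.39e-07), the largest fall of any member then. Atp5g2 and Atp5g3 had differences of -0.27 (SE 0.15, adjusted p = 0.179) and -0.16 (SE 0.16, adjusted p = 0.469). The 24 h libraries of Atp5g2 still lay below all of saline, and those of Atp5g3 overlapped it. Reads shared among these genes and their pseudogenes could be split between them.

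In HET all 3 c-subunit genes were called lower at 24 h, Atp5g1 by 2.61 (SE 0.23) and Atp5g2 and Atp5g3 by 0.68 and 0.46, though Atp5g3 turned to 0.04 and 0.70 under the scalings to other totals. The libraries of Atp5g1 in HET were 87.9, 57.7 and 82.9 in saline, 23.2, 18.9 and 20.4 at 8 h, 11.9, 11.2 and 11.3 at 24 h and 13.8, 13.2 and 10.3 at 48 h. Its share of the summed FPKM of the 3 genes, which no scaling between libraries affects, was 26.2, 24.6 and 17.4% in WT saline and 5.69, 7.47 and 5.15% at 24 h. In HET the share was 19.8, 17.9 and 24.9% in saline and 5.25, 5.3 and 5.77% at 24 h. Neither genotype's saline and 24 h shares overlapped (exact two-sided permutation p = 0.10, the smallest possible, adjusted p = 0.229). At 48 h the WT libraries had shares of 13.0, 11.0 and 10.8% and the HET libraries 8.83, 7.87 and 7.46%, again without overlap and with the same p.

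**Figure D3:**
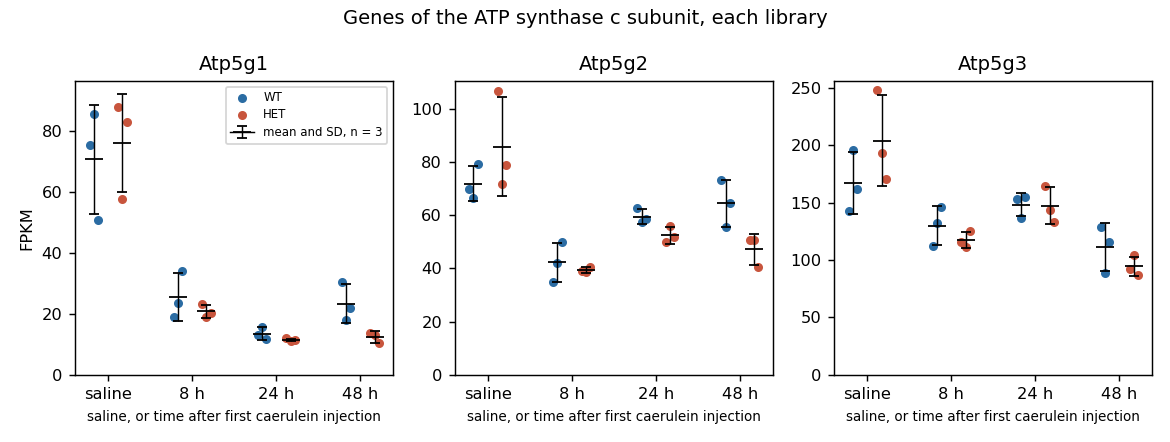
FPKM of Atp5g1, Atp5g2 and Atp5g3 in each library (points, vertical axis, each panel with its own scale from 0) for saline and the times after caerulein, with mean and SD of 3 libraries in WT and HET. Atp5g1 falls to between 11.2 and 15.7 FPKM at 24 h, while neither of the other 2 genes was called at 24 h in WT.

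Since the c-subunit genes make the same peptide and moved apart, the 130 bases before their RefSeq start sites (GRCm38.p6) are shown, beside those of Cox6a1, a complex IV subunit that fell with most of the members. Atp5g1 lies at chr11:96075632-96075761, Atp5g2 at chr15:102671048-102671177, Atp5g3 at chr2:73911327-73911456 and Cox6a1 at chr5:115348959-115349088, all on the minus strand, and sequences run 5′ to 3′ on that strand up to the start site. Capitals mark an exact match to 1 of the motifs searched.
Atp5g1: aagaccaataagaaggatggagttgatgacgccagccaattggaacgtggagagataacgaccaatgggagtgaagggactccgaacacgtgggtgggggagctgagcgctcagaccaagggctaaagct
Atp5g2: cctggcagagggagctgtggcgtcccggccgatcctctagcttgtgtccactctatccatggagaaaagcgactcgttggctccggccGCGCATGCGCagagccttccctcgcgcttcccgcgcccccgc
Atp5g3: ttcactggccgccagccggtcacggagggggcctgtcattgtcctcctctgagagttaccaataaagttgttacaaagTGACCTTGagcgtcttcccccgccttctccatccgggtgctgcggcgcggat
Cox6a1: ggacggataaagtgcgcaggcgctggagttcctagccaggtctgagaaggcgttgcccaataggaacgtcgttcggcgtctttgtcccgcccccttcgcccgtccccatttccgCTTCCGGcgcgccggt

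The 4 motifs were the palindromic NRF1 site in capitals in the Atp5g2 sequence, CCGGAAG for ETS factors such as GABP, AAGATGGC for YY1, and CAAGGNCA, which NR5A2 and the estrogen-related receptors can both bind. Each was searched on both strands in 300 bases, 250 before and 50 from the start site on, and the end of the ETS motif can overlap the beginning of the YY1 motif. Windows were found for 66 of 86 members, 71 windows in all. NRF1 letters were in 5 of 71 member windows (7.04%) and 0.971% of all 32851 windows, and ETS letters in 16 (22.5%) and 8.86%. YY1 letters were in 9 (12.7%) and 2.75%, and the shared NR5A2 letters in 8 (11.3%) and 6.71%. Atp5g2 holds the NRF1 letters 42 bases before its start, Atp5g3 the NR5A2 letters 52 bases before it on the other strand, and Cox6a1 the ETS letters at 16 bases. The Cox6a1 window also holds the NRF1 letters, outside the bases shown, so Atp5g2 and Cox6a1 share them. The Atp5g1 window holds none of the 4, which says only that these letters are not in it, and in all 35 members had none. A match is not evidence of binding.

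From 8 to 48 h, within 1 guide, most of complex I and the anchors of complex II came back up in WT. There 38 of 81 members rose and 1 fell, where 22.5% of all genes rose and 27.4% fell, and the median member rose by 0.49 against an all-gene median of 0.01. In HET 17 rose and 5 fell, where 23.4% and 28.6% of all genes did, with a median of 0.21 against -0.03. All 17 HET rises were among the 38 in WT, or 44.7% of them. Those 38 made up 46.9% of the members tested. By complex, 22 of 38 complex I members rose in WT and 12 in HET, and 2 of 4 in complex II in both. Only 2 of 8 in complex III rose in WT and none in HET, and in complex V 7 of 17 rose in WT and 2 in HET, Atp5s being 1 of them in each. Other markers moved between the same libraries. In WT, fibroblast and stellate markers summed to 252 to 310 FPKM at 8 h and 746 to 1260 at 48 h (10 of 14 higher, none lower), smooth muscle and pericyte markers to 17 to 20.5 and 82.4 to 188 (7 of 8 higher, none lower), and macrophage markers were higher in 11 of 18 and lower in 2. In HET, acinar products summed to 93300 to 104000 and then 4950 to 65900 (21 of 21 lower), macrophage markers to 570 to 751 and then 1190 to 2120 (13 of 18 higher, 1 lower), and fibroblast and stellate markers were higher in 11 of 14 and lower in none. Values treated as missing add nothing to the acinar sums. The part of these marker shifts in the members' change was not tested. Scaling to the total without acinar products gave 68 higher and none lower in WT and 74 and none in HET, and scaling to other protein-coding genes 71 and 65 higher with none lower. Of all genes the first scaling called 38.6% higher and 11.3% lower in WT, and 51.4% and 9.44% in HET. With the second, 42.2% were higher and 14.9% lower in WT, and 42.9% and 15.4% in HET. The members' medians stood above the all-gene medians by 0.64 and 0.48 with the first, and by 0.62 and 0.41 with the second.

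After Ndufa4, the rises with the smallest p in WT were those of Ndufs1 at 0.70 (SE 0.10), Ndufa4l2 at 0.95 (SE 0.16), Ndufv3 at 1.21 (SE 0.21) and Ndufs8 at 1.06 (SE 0.18). In HET the leading rise was that of Ndufc2, a membrane arm subunit, from 12.5, 12.8 and 14.9 FPKM at 8 h to 33.4, 35.6 and 29.0 at 48 h, or 1.22 (SE 0.21, adjusted p = 6.99e-05). Ndufa4 rose there by 0.90 (SE 0.17), Sdhc by 0.67 (SE 0.15) and Sdhd by 0.63 (SE 0.14). The 5 that fell in HET were Atp5b at -0.71, Ndufa1 at -0.93, Atp5g1 at -0.71, Uqcrc1 at -0.49 and Atp5a1, the alpha subunit of the F1 head, each of which turned positive under the scaling without acinar products. No member's change differed between genotypes by the test of the difference, where 0.7% of all genes did in either direction, and 3 had an unadjusted p under 0.05 in limma. The median difference was -0.24, which the scaling without acinar products turned to 0.06. The all-gene median moved from 0.02 to 0.27, so the members stayed 0.20 below it under that scaling. The smallest p belonged to Ndufv3, at -0.74 (SE 0.29, adjusted p = 0.273), and then to Cox8b, whose values are near 0.

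**Figure D4:**
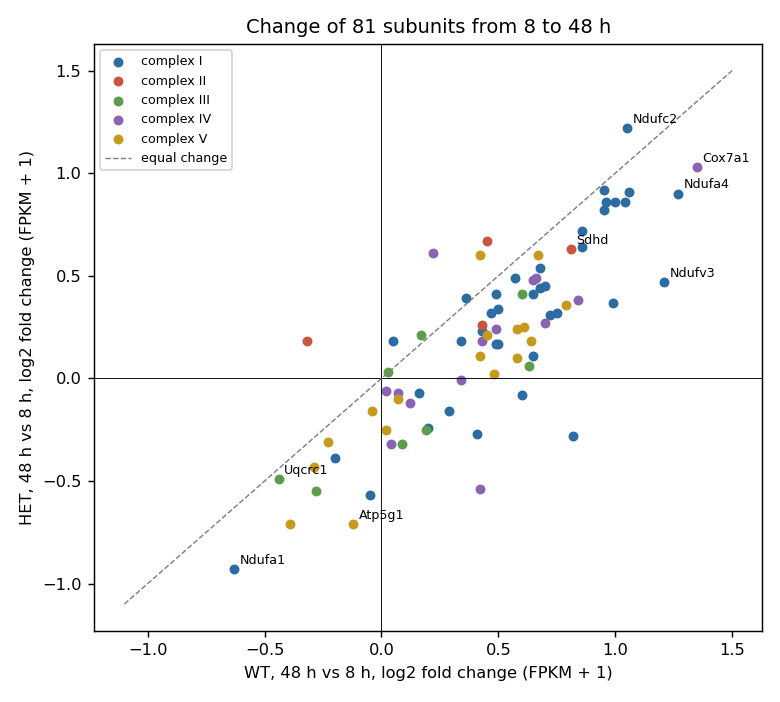
Each point is 1 of 81 tested subunit genes, coloured by complex, with its log2 fold change of FPKM + 1 from 8 to 48 h in WT (horizontal axis) and in HET (vertical axis). On the deposited scale 73 of 81 points lie below the dashed line of equal change, no single difference passed its test, and under the scaling without acinar products 31 do and 50 lie above it. The all-gene median of that difference is 0.02 on the deposited scale and 0.27 under the scaling without acinar products. The 5 genes called lower in HET turn positive under that scaling.

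At 48 h, 43 of 81 members were below saline in WT and 1 was above, where 13.5% of all genes were lower and 11.8% higher. In HET 69 were below and 1 above, where 20% of all genes were lower and 24.2% higher. The medians were -0.57 and -1.04, which became 0.05 and 0.02 with the scaling without acinar products, with 5 higher and 2 lower in WT and 13 higher and 13 lower in HET. That scaling called 28.5% of all genes higher and 1.58% lower in WT, and 63.8% and 4.72% in HET. Relative to the all-gene median the members stayed at -0.40 and -0.83 under that scaling. With the total of other protein-coding genes the splits were 5 higher and 13 lower in WT and 4 higher and 46 lower in HET. There 29.8% of all genes were higher and 4.44% lower in WT, and 50.2% and 10% in HET. Atp5g1 remained lowest by adjusted p in both genotypes, at -1.56 in WT and -2.51 in HET (SE 0.23 each). Ndufa1 and Ndufv3 followed in WT at -1.63 and -1.1, and Atp5o, Ndufv3 and Ndufb9 in HET at -1.92, -1.93 and -2.11. The WT count rested on single libraries, being 24 without replicate 2 of WT saline and 18 without replicate 2 of WT at 48 h. Against saline in WT, acinar products were lower in 13 of 18 with none higher, while macrophage markers were higher in 14 of 18 and fibroblast and stellate markers in 11 of 14, with none lower. In HET all 19 tested acinar products were lower, 17 of 18 macrophage markers were higher with none lower, and 10 of 14 fibroblast and stellate markers were higher and 1 lower. The part of these in the change at 48 h was not tested.

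Between genotypes, no member was called in saline, where 2.36% of all genes were, or at 8 h, where 0.218% were. In saline 7 members had an unadjusted p under 0.05 in limma and the median difference was 0.14. Sdhc was nearest, at 73.8, 75.4 and 68.9 FPKM in WT and 63.2, 62.0 and 43.2 in HET, a difference of -0.39 (SE 0.15, adjusted p = 0.156) without overlap, and Ndufa4l2 next at -0.41 (adjusted p = 0.169). Without replicate 1 of HET saline, 2 members were called. At 8 h 1 member had an unadjusted p under 0.05, Sdha, at -0.47 (SE 0.19, adjusted p = 0.755), followed by Atp5s, at -0.29 (adjusted p = 0.914).

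At 24 h the 1 call was Ndufa4l2, where 3% of all genes were lower in HET and 3.5% higher. It was 1.57, 1.39 and 0.84 FPKM in WT and 0.607, 0.368 and 0.283 in HET, without overlap, a difference of -0.67 (SE 0.16, adjusted p = 0.0183). The call was lost without replicate 1 or 2 of WT, or without replicate 2 or 3 of HET, with adjusted p up to 0.0745, and with the spread estimated from these 2 groups alone.

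At 48 h 12 members were lower in HET and none was higher, or 7 of 38 in complex I, 2 of 8 in complex III, 1 of 14 in complex IV and 2 of 17 in complex V, with none in complex II. Across all genes 6.37% were lower and 5.84% higher. The median member differed by -0.39, against 0.03 for all genes, and 29 members had an unadjusted p under 0.05 in limma, all lower in HET. Ndufb9, a membrane arm subunit and the most abundant complex I gene in WT saline, was 151, 87.5 and 131 FPKM in WT and 68.9, 65.7 and 46.6 in HET, a difference of -1.0 (SE 0.24, adjusted p = 0.0107). Ndufs7 stood at 37.4, 28.6 and 34.0 in WT libraries against 20.9, 20.6 and 15.0 in HET, a difference of -0.80 (SE 0.20, adjusted p = 0.0152). In both, and in the other 10 called genes, WT and HET libraries did not overlap, and replicate 2 of WT lay nearest to HET for both. The next by p were Ndufb11 at -0.94, Ndufb10 at -0.78, Atp5g1 at -0.83 and Atp5o at -0.72.

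These 12 calls depended on single libraries and on the scale. The count was 0 without replicate 1 of WT, without replicate 3 of WT or without replicate 3 of HET, 7 without replicate 2 of HET and 17 without replicate 2 of WT. It was 0 with the spread of the 2 groups alone, and 1 higher and none lower with the scaling without acinar products, under which the median was 0.07. That scaling called 23.7% of all genes higher and 2.62% lower, with an all-gene median of 0.39, so the members stood 0.32 below the median gene. With the total of other protein-coding genes the count was 18 lower and none higher (median -0.30), where 6.47% of all genes were lower and 8.43% higher. With median-ratio scaling it was 15 lower and none higher (median -0.40), where 7.12% of all genes were lower and 5.46% higher. Acinar products were lower in HET too, 22 of 26 tested, with sums of 96000 to 230000 FPKM in WT and 4950 to 65900 in HET. Values treated as missing add nothing to these sums. Macrophage markers were higher, 9 of 18 with none lower, with sums of 373 to 1270 and 1190 to 2120. Cytosolic ribosomal protein genes were lower in 26 of 76, with a median of -0.65. The part of these in the members' difference was not tested.

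Related genes did not all move with the subunits. At 8 h in WT, assembly factors, which build the complexes, were higher in 2 and lower in 24 of 44 tested (median -0.68), and mitochondrial ribosomal proteins higher in 7 and lower in 36 of 76 (median -0.44). Tricarboxylic acid cycle genes were higher in 2 and lower in 10 of 18 (median -0.55), among them Ogdh at -1.13 and Idh3a at -0.94. Electron carriers and partner proteins whose names the rule does not match were higher in 2 and lower in 6 of 17 (median -0.31), led by Coq7, an enzyme of ubiquinone synthesis, at -1.54. Cytosolic ribosomal protein genes were lower in 15 of 76 and higher in none (median -0.39). Genes of import and cristae were divided, 7 higher and 12 lower of 31. Of all genes 22.8% were lower and 28.2% higher, so a count near these shares is not a result about its list.

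At 24 h in WT the order differed on the deposited scale, where 18.7% of all genes were called lower and 20.5% higher. Cytosolic ribosomal protein genes were lower in 58 of 76 and higher in none (median -0.87), below the subunits' -0.57, while assembly factors were higher in 6 and lower in 9 of 44 (median -0.16) and mitochondrial ribosomal proteins higher in 8 and lower in 22 of 76 (median -0.15). Tricarboxylic acid cycle genes were lower in 8 of 18 and higher in none, led by Idh2 at -1.5 (SE 0.24). These lists' differences from each other were not tested. The scaling without acinar products moved the subunits' median to 0.32 and called 56.1% of all genes higher. Counts of the other lists under that scaling are not given here. Macrophage markers rose in 16 of 18, with sums of 112 to 266 FPKM in WT saline and 916 to 1370 at 24 h, fibroblast and stellate markers in 11 of 14, and acinar products fell in 13 of 17. In HET at 24 h, 13 of 18 macrophage markers rose, 2 of 14 fibroblast and stellate markers rose and 2 fell, and 16 of 18 acinar products fell. There 19.8% of all genes were called lower and 23.9% higher. The part of these markers in the members' change was not tested.

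Known regulators of respiratory genes went the other way from the subunits at 8 h. In WT 9 of 15 tested were higher and none lower (median 0.73), and in HET 9 of 15 were higher and none lower. Of all genes 28.2% were higher and 22.8% lower in WT, and 30.7% and 24.5% in HET. Nrf1, the activator named for nuclear respiratory genes, was 3.18, 6.13 and 2.19 FPKM in WT saline, 19.4, 17.4 and 17.8 at 8 h, 5.83, 3.31 and 4.57 at 24 h and 3.04, 3.26 and 2.46 at 48 h. It rose by 2.07 at 8 h (SE 0.22, adjusted p = 1.44e-07) and fell by 2.30 from 8 to 48 h (SE 0.22, adjusted p = 4.61e-08). Pprc1, a coactivator of the PGC-1 family, was 11.2, 3.79 and 7.0 in saline and 35.7, 36.9 and 37.8 at 8 h, a rise of 2.28 (SE 0.29), and fell by 2.84 from 8 to 48 h. Gabpb1, a subunit of the ETS complex GABP, rose by 1.31 and then fell by 1.22 (SE 0.18 each). In each of the 3 genes all 8 h libraries lay above all saline and 48 h libraries. In HET, Nrf1 rose by 2.60 and then fell by 1.95.

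Glycolytic genes were higher in 7 and lower in 2 of 15 at 8 h in WT (median 0.31), where 28.2% of all genes were higher and 22.8% lower. Ldha, which reduces pyruvate to lactate, was 33.4, 33.6 and 38.8 FPKM in WT saline, 92.8, 111 and 111 at 8 h, 73.7, 63.5 and 60.3 at 24 h and 40.4, 42.9 and 37.4 at 48 h. It rose by 1.54 at 8 h (SE 0.12, adjusted p = 4.34e-09) and fell by 1.36 from 8 to 48 h (SE 0.12), opposite in sign to Ndufa4 and Ndufs1 in both comparisons.

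**Figure D5:**
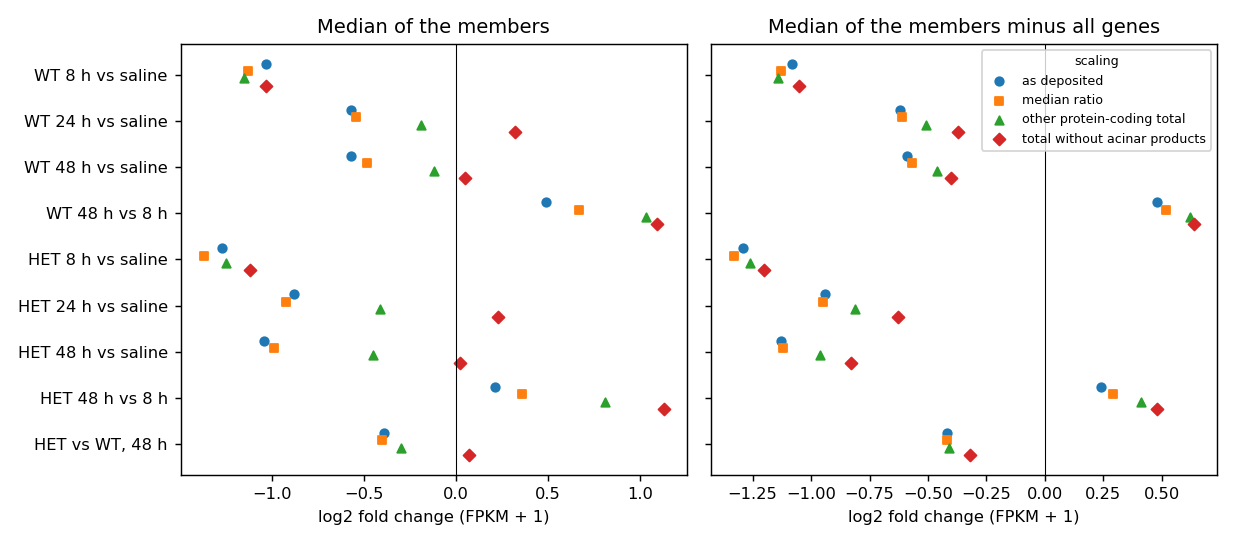
Median log2 fold change of FPKM + 1 over the 81 members for 9 comparisons, as it stands (left) and after subtracting the median of all genes tested (right), under the deposited scale and 3 other scalings of the libraries, each with its own marker. On the left the medians at 24 and 48 h against saline, and of HET against WT at 48 h, cross 0 under the scaling without acinar products. On the right every comparison shown keeps its sign.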

How the data were processed

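Tools named per the submitters' processing notes are Bowtie, Cuffnorm, CASAVA 1.8 and Cufflinks 2.0.2, and the build is mm9; their order and roles are not stated. The authors deposited FPKM per Ensembl gene; the header names no unit, so FPKM is taken from Cuffnorm, and reads were not analysed here. Per the labels' protocols, RNA integrity numbers were 6.6 to 9.2, and the guides used 10 or 8 PCR cycles. The WT saline replicate 3 title is in neither guide's list as written.

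All 24 libraries were fitted on log2(FPKM + 1) with limma 3.58.1 in R 4.3.3 (trend, robust), 1 mean per group, 16 residual degrees of freedom and 14 two-sided comparisons, adjusted over all genes with 1 FPKM in at least 3 libraries (threshold 0.05). Groups at 0 while another group had at least 100 FPKM in each library, and neighbouring genes with that pattern, were missing (27 genes, no member). Such values add nothing to summed FPKM. The script was tested on simulated data. Replicates were numbered in accession order. Differences are on the log2(FPKM + 1) scale, which understates change at low levels.

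Members and lists were chosen with earlier results of these data known. Named are, per comparison, up to 6 members per direction with the smallest adjusted p and no overlap, or the 2 smallest p where none passed, all of complex II, the most abundant member of each complex, isoform pairs and up to 3 genes per related list. The c-subunit genes, the within-library ratios and other members were picked after their values were seen. Promoters are RefSeq's, and no position is given on mm9. Alternatives changed the pseudocount (0.1), filter, scaling, spread, moderation, zeros and libraries; that with other protein-coding genes was chosen after seeing the data. Tables and plots used Python 3.11.15 with pandas 2.3.3, numpy 2.4.6 and matplotlib 3.10.9.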

Additional observations from a re-analysis of the deposited data

How the results depend on the processing

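With the pseudocount at 0.1, no filter, median-ratio scaling, no trend and robust moderation, or zeros of whole groups kept, all 14 counts of members called stayed within 1.5 times. Scaled to the total without acinar products and Reg genes, the counts became 35 for HET 24 h vs saline, 26 for HET 48 h vs saline, 7 for WT 48 h vs saline, 68 and 74 for 48 h vs 8 h in WT and HET and 1 for HET vs WT at 48 h. The members' median there turned to 0.32 (WT 24 h), 0.05 (WT 48 h), 0.23 (HET 24 h), 0.02 (HET 48 h), 0.02, 0.04 and 0.07 (HET vs WT at 8, 24 and 48 h) and 0.06 (difference between genotypes of the change from 8 to 48 h). Of these, HET vs WT at 8 h and the difference between genotypes had no calls. The all-gene medians there were 0.69 (WT 24 h), 0.44 (WT 48 h), 0.86 (HET 24 h), 0.85 (HET 48 h), 0.12, 0.18 and 0.39 (HET vs WT) and 0.27 (the difference). Genes that changed sign there were Uqcrc1 at 0.20 (WT 24 h), 0.20 (WT 48 h vs 8 h) and 0.45 (HET 48 h vs 8 h), Atp5b at 0.25, Ndufa1 at 0.02, Atp5g1 at 0.20 and Atp5a1 at 0.52 (all HET 48 h vs 8 h), Ndufa4l2 at 0.01 and Cox4i1 at 0.05 (WT 24 h) and Atp5g3 at 0.70 (HET 24 h). Entries that are not protein-coding held 18.8 to 60.1% of that total. Scaled to other protein-coding genes, the counts were 18 for WT 48 h vs saline and 71 and 65 for 48 h vs 8 h in WT and HET, and Uqcrc1 went to 0.13 and 0.11 (48 h vs 8 h, WT and HET), Atp5a1 to 0.18 and Atp5g3 to 0.04. Fits restricted to the libraries being compared gave 0 for HET vs WT at 24 h and at 48 h, 26 for WT 48 h vs saline, 42 for HET 24 h vs saline and 35 for HET 48 h vs 8 h. The cause of these shifts was not tested. Leaving out 1 library at a time gave 0 to 2 calls for HET vs WT in saline, 0 to 1 at 24 h, 0 to 17 at 48 h, 18 to 49 for WT 48 h vs saline and 0 to 1 for the 24 h interaction. Depth is unknown, so counting error of low members such as Ndufa4l2 and Cox7a1 cannot be given. No paired analysis was possible because nothing in the labels pairs animals across groups and replicate numbers follow accession order.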
